A study of Homo sapiens with 8 samples.

Results

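The genes described here lie along 13q, the long arm of human chromosome 13, and were listed because many of them had lower RNA levels after FOXA1 knockdown. The list held 59 names, and 57 of them equalled a symbol in the deposited count table of 30434 genes. DACH1 and an entry written LAMP1-13q had no row under those names and were not analysed here as members. LAMP1 itself, a gene at the end of the arm, was counted under its own symbol and is given among the other genes of 13q. All 57 had enough counts to be kept, so each is among the 16430 genes tested. They were selected on log2 fold changes of the contrast described here, knockdown against control, along the arm.

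RNA was sequenced from SKBR3, an established human breast cancer cell line with amplified ERBB2 (HER2), in 4 control libraries, labelled WT, and 4 libraries from cells labelled FOXA1 knockdown. The knockdown line was stable and carried short hairpin RNAs against FOXA1, of several designs, delivered by lentivirus. The labels do not say whether the controls received a control vector, which hairpin each knockdown library carried, or whether libraries of a group came from separate cultures. Both groups were grown in the same medium with serum, no other treatment is given, and every library shares the SKBR3 background. FOXA1, a pioneer transcription factor of luminal breast cells, stood between 189.5 and 193.3 CPM in control and between 3.56 and 4.26 CPM in knockdown libraries, where CPM is counts per 1000000 after TMM scaling of the library totals. ERBB2 stood between 6999 and 7752 CPM in control and between 1271 and 1396 CPM in knockdown. The SKBR3 markers ERBB2, GRB7, KRT8, KRT18, KRT19 and EPCAM summed to between 16540 and 18450 CPM in control and between 10990 and 11860 CPM in knockdown. Within this list ERBB2, GRB7 and KRT19 were lower in every knockdown library than in any control, while KRT8 (4280 to 4798 CPM in control, 5191 to 6049 CPM in knockdown), KRT18 and EPCAM were higher. The leukocyte marker PTPRC was at most 0.137 CPM in any library, and CD68, the other marker of that list with a row, lay between 4.26 and 5.65 CPM in control and between 0.139 and 1.11 CPM in knockdown. The fibroblast markers COL1A1, COL3A1, PDGFRB and DCN summed to between 5.13 and 6.93 CPM in control and between 10.8 and 11.9 CPM in knockdown, and the endothelial markers PECAM1, VWF and CDH5 to between 19.7 and 22.5 CPM over both groups. The endothelial sum joined opposite movements: VWF lay between 4.53 and 5.95 CPM in control and between 0.555 and 1.07 CPM in knockdown, and CDH5 between 15.7 and 16.4 CPM in control and between 18.8 and 21.9 CPM in knockdown. The part of these markers in the results was not tested. Library totals ran from 19087878 to 23786684 counts.

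Chromosome 13 has a short arm that carries ribosomal RNA genes, so its protein-coding genes lie on the long arm. The arm holds the tumour suppressor gene RB1 and many genes that nearly every cell uses: subunits of transcription, ubiquitin and nuclear transport machinery, mitochondrial enzymes, and proteins of the secretory pathway. The members share an arm and not a pathway, so they are described both by position and by role. The files hold RNA counts only. DNA copy number was not analysed here.

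Most members were lower in the knockdown libraries, by amounts that ranged from small to severalfold. Their median log2 fold change (knockdown minus control) was -0.49, which is 71.3% of the control level, and 43 of the 57 values (75.4%) were below 0. The median over all 16430 genes tested was 0.02, with 49.0% below 0. A member was called where edgeR's quasi-likelihood test gave an adjusted p under 0.05 over all genes tested. Calls in either direction covered 77.1% of all genes tested. By this rule 40 members were lower, where 37.7% of all genes tested were called lower, and 11 were higher, where 39.4% of all genes were. Every knockdown library lay below every control for 39 members, as in 35.0% of all genes, and above every control for 7, as in 36.9%. The remaining 6 members, LATS2, MIPEP, USPL1, WBP4, NUFIP1 and TPP2, were not called. These counts describe the list and support nothing further, because this same contrast was used to choose it. The label of lowered genes holds for the list as a whole, fails for the 11 members called higher and is not met by the 6 not called. Since bulk RNA was measured, fewer cells carrying a transcript and less transcript per cell cannot be told apart.

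A total of 33 members (57.9%) had a log2 fold change between -1 and 0, against 35.4% of all genes tested and 46.2% of the 156 other protein-coding genes of chromosome 13 that were tested. Most members are well counted: 56 had a mean of at least 50 counts. Among genes at that level these shares were 58.9%, 38.1% and 48.9%. At that level 71.4% of members and 41.6% of all genes were called lower. Calls of at least 2-fold were found for 10 members that were lower, where 13.4% of all genes were, and for 3 that were higher, where 14.9% were. The range ran from -3.44 for LHFPL6 to 2.41 for PARP4.

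**Figure D1:**
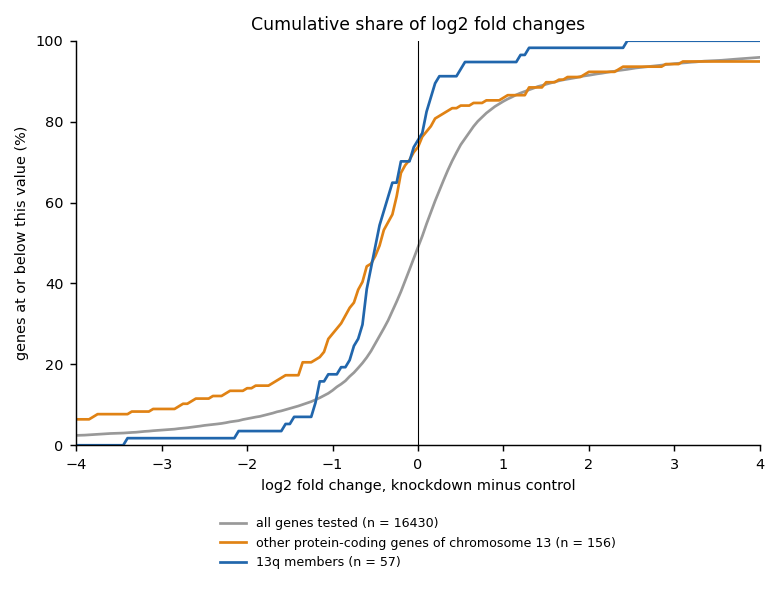
Cumulative share of genes (y axis, percent) at or below each log2 fold change, knockdown minus control (x axis, drawn from -4 to 4), for the 57 members, the 156 other tested protein-coding genes of chromosome 13 and all 16430 genes tested. Both chromosome 13 curves stand at 75.4% and 73.7% at a value of 0, where all genes stand at 49.0%.

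The members' sum and median were below the controls in all 4 knockdown libraries. Their summed level was 5757, 5839, 5562 and 5765 CPM in control replicates 1 to 4 and 4095, 3985, 4151 and 4026 CPM in knockdown replicates 1 to 4. The groups did not overlap, and knockdown kept 70.9% of the control sum. TPT1 alone made up a large part of this sum, and without it knockdown kept 74.2% (4071 ± 130 CPM in control against 3022 ± 24.7 CPM in knockdown; SD of 4 libraries per group). The median member stood at -0.482, -0.493, -0.495 and -0.466 relative to the control mean on the log2 CPM scale in knockdown replicates 1 to 4, with 43 or 44 of the 57 members below that mean. Control replicate 3 differed from its group: its median member was at -0.107, with 46 of 57 members below the control mean, while the other controls were at 0.019, 0.026 and 0.054. The median over all genes tested was 0.003 in control replicate 3 and 0.023, 0.026, 0.027 and 0.015 in knockdown replicates 1 to 4. Since this contrast chose the members, their lower level in the knockdown libraries supports nothing further. Without control replicate 3 the members' median was -0.505, and 41 were called lower and 7 higher.

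**Figure D2:**
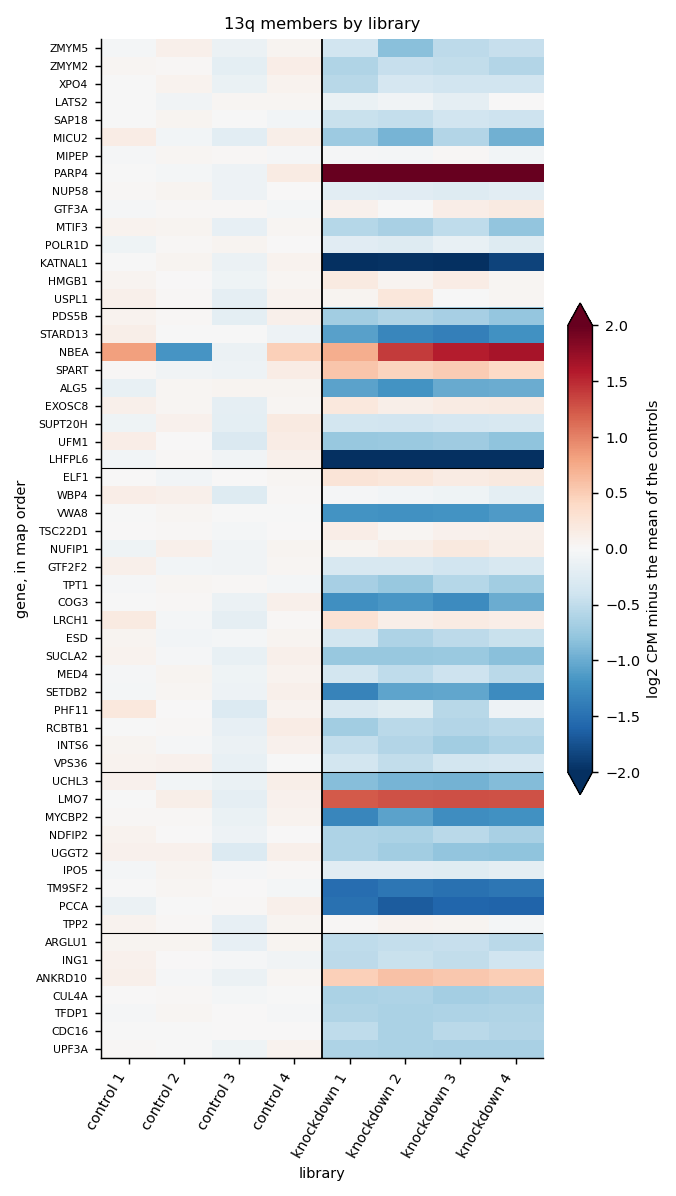
Each row is a member in map order, each column a library, and the colour is log2 CPM minus the mean of the 4 controls, drawn from -2 to 2 with values beyond at the end colours; black horizontal lines part the 5 map segments. The 4 knockdown columns share the same rows of blue and red, and control replicate 3 is slightly blue in most rows.

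Promoter sequences were compared next, since they were not used to choose the members. RefSeq (GRCh38.p14) windows of 300 bases, 250 before to 50 after the start, were matched for 52 of the 57 members. Their median GC content was 65.7% and their median number of CpG dinucleotides 28, against 66.7% and 27 in 136 other tested protein-coding genes of chromosome 13, and 58.7% and 14 in all 35116 RefSeq windows. The members called lower had a median of 28 CpG and those called higher of 23.5, over 37 and 10 windows. A single window, the first listed, was kept per gene. For ELF1 and HMGB1, both called higher, that window lies inside the gene, so these medians depend on the choice of start. A forkhead motif, the core that FOXA proteins recognise, was searched on both strands with the spelling TGTTTAC and with its variants TGTTTGC as well as TATTTAC and also TATTTGC. It was found in 1 member window (1.92%), that of LATS2, against 7.35% of the other chromosome 13 windows and 12.1% of all windows. These spellings are mostly A and T, while member windows held more GC than all windows. The set of all windows was not limited to tested genes or to 1 window per gene. The part of base composition in these shares was not tested. A window without these letters says nothing about binding of FOXA1 elsewhere.

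The 250 bases before the RefSeq start are shown for KATNAL1 and LMO7, the members with the lowest and the highest log2 fold change among those with a window, and for ELF1, a member called higher that shares a start region with WBP4 in GENCODE 29. Capitals mark CpG dinucleotides, and each is written 5′ to 3′ on the gene's strand. They lie at chr13:30307552-30307801 (minus strand), chr13:75620184-75620433 (plus strand) and chr13:40982283-40982532 (minus strand).
KATNAL1: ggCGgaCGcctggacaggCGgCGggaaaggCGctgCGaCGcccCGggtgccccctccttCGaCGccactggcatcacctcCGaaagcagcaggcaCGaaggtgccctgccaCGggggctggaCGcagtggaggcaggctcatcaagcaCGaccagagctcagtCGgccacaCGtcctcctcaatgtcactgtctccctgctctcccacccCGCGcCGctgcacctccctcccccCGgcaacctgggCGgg
LMO7: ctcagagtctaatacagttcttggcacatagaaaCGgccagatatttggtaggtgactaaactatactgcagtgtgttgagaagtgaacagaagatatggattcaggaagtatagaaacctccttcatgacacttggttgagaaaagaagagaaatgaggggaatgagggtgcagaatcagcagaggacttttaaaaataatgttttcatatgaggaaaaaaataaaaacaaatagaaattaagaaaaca
ELF1: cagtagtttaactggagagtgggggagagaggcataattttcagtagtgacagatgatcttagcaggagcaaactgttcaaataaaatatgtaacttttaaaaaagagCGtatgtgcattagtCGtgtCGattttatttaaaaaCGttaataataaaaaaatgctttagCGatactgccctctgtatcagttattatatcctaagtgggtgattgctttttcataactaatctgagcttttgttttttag
The KATNAL1 stretch holds 22 CpG and is 70.8% GC. LMO7 holds 1 CpG at 35.6% GC, and ELF1 holds 5 CpG at 33.2% GC. None of the 3 windows held the forkhead letters. The ELF1 window lies inside the gene as GENCODE 29 draws it, so it shows one of several starts and not the region shared with WBP4.

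Gene coordinates below are those of GENCODE 29 on GRCh38. By role, genes of growth control and cell division come first. Of the 5 members, 4 were called lower and none higher, with a median of -0.67. TPT1 (chr13:45333471-45341370, minus strand) encodes the translationally controlled tumour protein, an abundant calcium-binding protein. It stood at 1641, 1697, 1685 and 1616 CPM in control replicates 1 to 4 and at 1046, 984.9, 1113 and 1023 CPM in knockdown replicates 1 to 4. The groups were far apart, and the log2 fold change was -0.67 (SE 0.0405). PDS5B, which regulates the cohesin ring on chromosomes, stood at 74.0, 71.0, 61.3 and 75.4 CPM in control and at 43.5, 46.4, 44.3 and 41.2 CPM in knockdown, a fall to 62.2% of control. Its lowest control was replicate 3, which still lay above every knockdown library.

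KATNAL1 (chr13:30202630-30307484, minus strand), a relative of the microtubule-severing enzyme katanin, was the lowest of the members from ZMYM5 to USPL1, the stretch nearest the centromere. It stood at 5.45, 5.72, 5.08 and 5.78 CPM in control and at 1.23, 1.39, 0.917 and 1.53 CPM in knockdown, which left 23.0% (log2 fold change -2.11, SE 0.162). CDC16, a subunit of the anaphase-promoting complex, fell from 91.2 ± 0.215 CPM to 61.5 ± 2.21 CPM (SD of 4 libraries per group). LATS2 (chr13:20973032-21061547, minus strand), a kinase of the Hippo pathway, did not follow. It stood at 29.2, 28.2, 30.2 and 30.1 CPM in control and at 26.8, 27.9, 26.1 and 29.6 CPM in knockdown, so the groups overlapped and it was not called.

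Chromatin and transcription supplied 15 members, of which 11 were called lower and 4 higher, with a median of -0.36. TFDP1 (chr13:113584721-113641470, plus strand), the DP1 partner of E2F factors, stood at 306.8, 318.0, 311.9 and 307.0 CPM in control and at 204.0, 201.3, 202.0 and 204.9 CPM in knockdown. Both groups were tight, and knockdown kept 65.3% (log2 fold change -0.61, SE 0.0136). The histone methyltransferase-family gene SETDB2 fell furthest in this role, from 9.53 ± 0.585 CPM to 4.25 ± 0.430 CPM (SD of 4 libraries per group). ING1, a reader of histone methylation, kept 72.4%, MED4, a Mediator subunit, 72.8%, and SAP18, a subunit of Sin3 corepressor complexes, 74.4%. GTF2F2, a subunit of the general factor TFIIF, kept 79.2%, and POLR1D, a subunit shared by RNA polymerases I and III, 85.5%. The zinc finger genes ZMYM2 and ZMYM5 had the same log2 fold change of -0.54. SUPT20H, of the SAGA coactivator, kept 78.1%. PHF11 was called lower at -0.31 (SE 0.138), with overlapping groups, and lost its call in 3 of 16 other fits.

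The 4 transcription members called higher moved little. ELF1 (chr13:40932028-41061440, minus strand), an ETS family factor, stood at 37.9, 36.2, 37.8 and 38.5 CPM in control and at 45.0, 43.9, 41.9 and 42.9 CPM in knockdown, with no overlap and a log2 fold change of 0.21 (SE 0.0288). HMGB1 (chr13:30456704-30617597, minus strand) encodes an abundant DNA-bending chromatin protein. It stood at 442.5, 431.3, 401.9 and 438.7 CPM in control and at 484.0, 444.8, 475.5 and 439.6 CPM in knockdown, and the groups overlapped (log2 fold change 0.10, SE 0.0467). Its call was lost without control replicate 3 and without knockdown replicate 1. The table also counted 15 rows of HMGB1 pseudogenes, which can share its reads; their sum was 86.6 ± 5.54 CPM in control, against 107.8 ± 5.41 CPM in the knockdown libraries, so the assignment of HMGB1 reads is uncertain.

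GTF3A, the factor TFIIIA of 5S ribosomal RNA genes, stood at 62.5, 64.1, 64.6 and 61.8 CPM in control and at 67.1, 63.0, 69.4 and 71.3 CPM in knockdown. Knockdown replicate 2 lay within the control range, and the call was lost in 11 of 16 other fits. TSC22D1, a leucine zipper regulator, stood at 117.2, 119.2, 113.6 and 116.7 CPM in control and at 127.9, 119.9, 124.0 and 125.0 CPM in knockdown, a log2 fold change of 0.09 (SE 0.0242). Its groups did not overlap, and its call was lost in 6 of 16 other fits.

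Among 6 RNA processing and decay genes, 3 were called lower and 1 higher. UPF3A, of nonsense-mediated decay, kept 64.2% of its control level, INTS6, of the Integrator complex, 66.1%, and ARGLU1, a splicing regulator, 70.7%. ARGLU1 was low in control replicate 3, at 179.9 CPM against 209.6 to 211.3 CPM in the other controls, and its knockdown libraries lay between 139.4 and 147.8 CPM. EXOSC8, a subunit of the RNA exosome, stood at 30.5, 29.2, 24.98 and 29.1 CPM in control and at 32.9, 30.9, 31.7 and 32.02 CPM in knockdown. The log2 fold change was 0.16 (SE 0.0658), and the call was lost without control replicate 3, where the value was 0.10. WBP4 and NUFIP1 were not called, at -0.10 and 0.12.

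All 3 nuclear transport genes were called lower, by small amounts. IPO5, an importin, stood at 309.6, 330.1, 311.8 and 322.6 CPM in control and at 273.6, 272.6, 270.6 and 278.4 CPM in knockdown. The groups did not overlap, and 86.0% was kept. NUP58, a nucleoporin, kept 85.4%, and XPO4, an exportin, had a log2 fold change of -0.42.

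Protein tagging and breakdown held 7 members, with 5 called lower, none higher and a median of -0.65. CUL4A (chr13:113208193-113267108, plus strand), the scaffold of a ubiquitin ligase, stood at 224.2, 226.2, 216.3 and 221.0 CPM in control and at 142.5, 143.9, 138.2 and 142.1 CPM in knockdown. The groups were tight and well apart, at a log2 fold change of -0.65 (SE 0.0188), the lowest of the members from ARGLU1 to the end of the arm. MYCBP2, a very large ubiquitin ligase, fell from 151.7 ± 9.03 CPM to 65.8 ± 4.65 CPM (SD of 4 libraries per group). UCHL3, a deubiquitinating enzyme, kept 53.4%, UFM1, the ubiquitin-like modifier, 58.8%, and NDFIP2, an adaptor of NEDD4 family ligases, 65.7%. TPP2, a large cytosolic peptidase, and USPL1, a SUMO isopeptidase, were not called, at 0.03 and 0.08.

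The mitochondrial genes had the lowest median of any role, -0.79, with 5 of 6 called lower and none higher. Over all members 70.2% were called lower, and the secretory and endosomal genes had a median of -0.73. The difference between roles was not tested. PCCA (chr13:100089015-100530437, plus strand), a subunit of propionyl-CoA carboxylase, stood at 30.9, 33.4, 33.9 and 36.1 CPM in control and at 11.9, 10.6, 11.2 and 11.0 CPM in knockdown, which left 33.3% (log2 fold change -1.59, SE 0.0582). VWA8 (chr13:41566837-41961120, minus strand), a mitochondrial ATPase, stood at 65.8, 68.3, 65.9 and 65.9 CPM in control and at 28.95, 28.8, 28.9 and 30.4 CPM in knockdown, or 44.0%. In both genes every knockdown library lay far below every control. MICU2, a gatekeeper of the calcium uniporter, kept 57.5%, SUCLA2, a subunit of succinyl-CoA synthetase, 58.4%, and MTIF3, a translation initiation factor, 64.7%. MTIF3 overlaps the end of GTF3A on the opposite strand. MIPEP, a processing peptidase, was not called, and lay between 14.6 and 15.6 CPM in all 8 libraries.

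Secretory and endosomal genes were divided, with 5 of 7 called lower and 2 higher. TM9SF2, a membrane protein of endosomes and Golgi, fell from 481.8 ± 10.6 CPM to 172.9 ± 4.70 CPM (SD of 4 libraries per group), to 35.9%. COG3, a Golgi tethering subunit, kept 44.7%, ALG5, an enzyme of N-glycan assembly, 47.8%, UGGT2, a relative of the glycoprotein folding sensor, 60.2%, and VPS36, of the ESCRT-II complex, 76.1%. ALG5 and EXOSC8 overlap head to head, and ALG5 fell where EXOSC8 was called higher. SPART, which encodes spartin, stood at 27.0, 25.3, 24.6 and 29.3 CPM in control and at 39.1, 35.9, 37.8 and 34.9 CPM in knockdown. It rose to 139% of control with no overlap, and shares its locus with an antisense gene. NBEA, neurobeachin, was close to the floor of detection, with between 3 and 12 counts per control library and between 12 and 21 per knockdown library. It was kept among the genes tested through its knockdown libraries, the group where it was higher, so its call is not support. Its levels were 0.550, 0.136, 0.285 and 0.431 CPM in control and 0.510, 0.819, 0.917 and 0.972 CPM in knockdown, so knockdown replicate 1 lay within the control range. The table also counted 2 rows of NBEA pseudogenes, whose sum was 0.410 ± 0.128 CPM in the controls, against 0.179 ± 0.0898 CPM in knockdown. The gene and these copies together stood at 0.760 ± 0.274 CPM and 0.984 ± 0.158 CPM (SD of 4 libraries per group), so the size of the NBEA difference is uncertain.

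The remaining 8 members were split evenly, 4 called lower and 4 higher, and held both ends of the range. LHFPL6 (chr13:39209116-39603528, minus strand), a tetraspan membrane protein, stood at 5.999, 6.31, 5.94 and 6.72 CPM in control and at 0.638, 0.533, 0.560 and 0.555 CPM in knockdown. That left 9.15% (log2 fold change -3.44, SE 0.0676). PARP4 (chr13:24420926-24512810, minus strand), the vault-associated member of the PARP family, went the other way. It stood at 11.1, 10.9, 10.4 and 12.5 CPM in control and at 61.2, 58.5, 58.4 and 60.6 CPM in knockdown, a 5.32-fold rise. LMO7 (chr13:75620434-75859870, plus strand), an actin-associated LIM protein of cell junctions, stood at 7.28, 7.94, 6.46 and 7.76 CPM in control and at 17.2, 17.7, 17.9 and 17.8 CPM in knockdown, a 2.40-fold rise. PARP4 overlaps a pseudogene and LMO7 an antisense gene and other noncoding genes, and the sources used here do not state if reads were counted by strand.

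ANKRD10 (chr13:110878540-110915069, minus strand), an ankyrin repeat gene, stood at 37.6, 34.6, 32.5 and 36.0 CPM in control and at 48.8, 52.9, 50.9 and 49.5 CPM in knockdown, or 144% of control. It was the member called higher in the stretch from ARGLU1 to UPF3A, where the other 6 were called lower. LRCH1 stood at 13.9, 11.9, 10.8 and 12.5 CPM in control and at 14.96, 13.3, 13.7 and 13.3 CPM in knockdown. Its groups overlapped, and its call was lost in 8 of 16 other fits. STARD13 fell to 42.4%, RCBTB1 to 66.3% and ESD, S-formylglutathione hydrolase, to 71.4%.

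**Figure D3:**
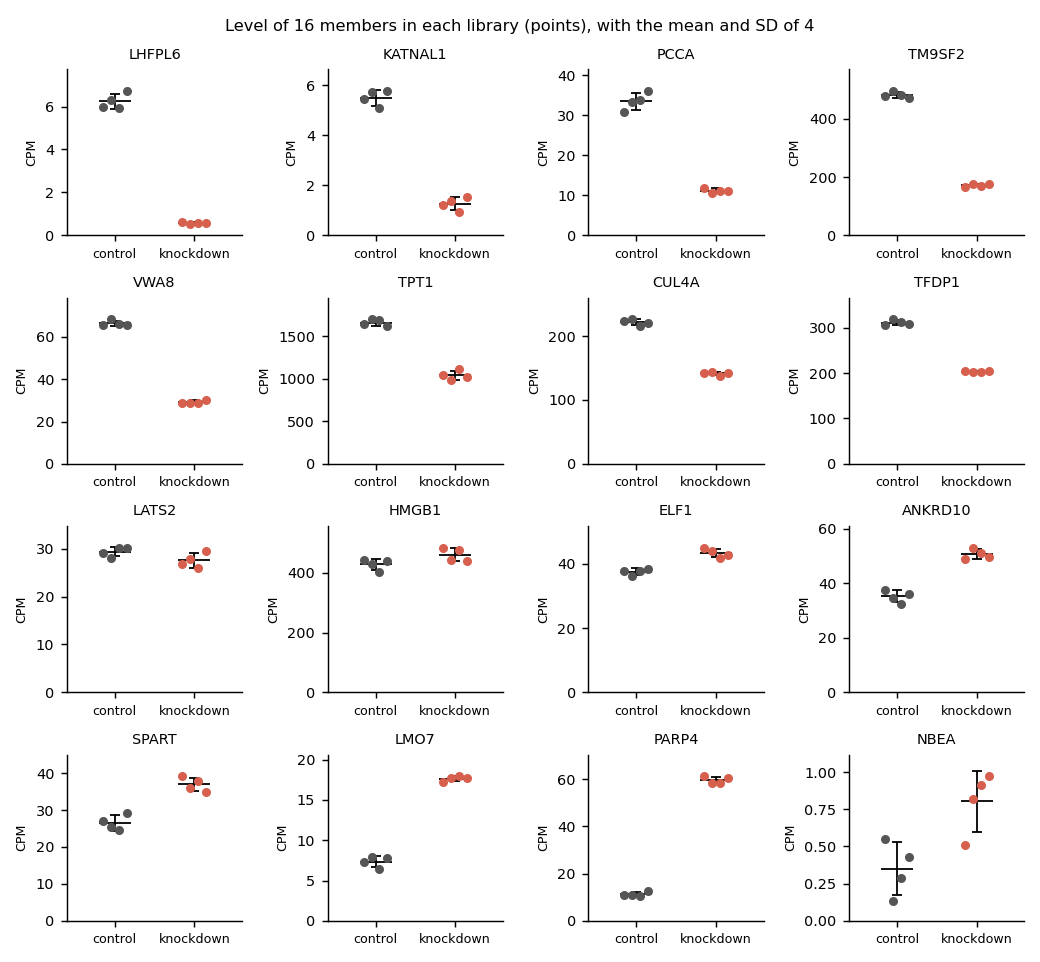
Levels (y axis, CPM, each from 0) of 16 members in the 4 control and 4 knockdown libraries (x axis); points are libraries and black bars the mean ± SD of 4. Groups are apart in every panel except LATS2, HMGB1 and NBEA, where they overlap.

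**Figure D4:**
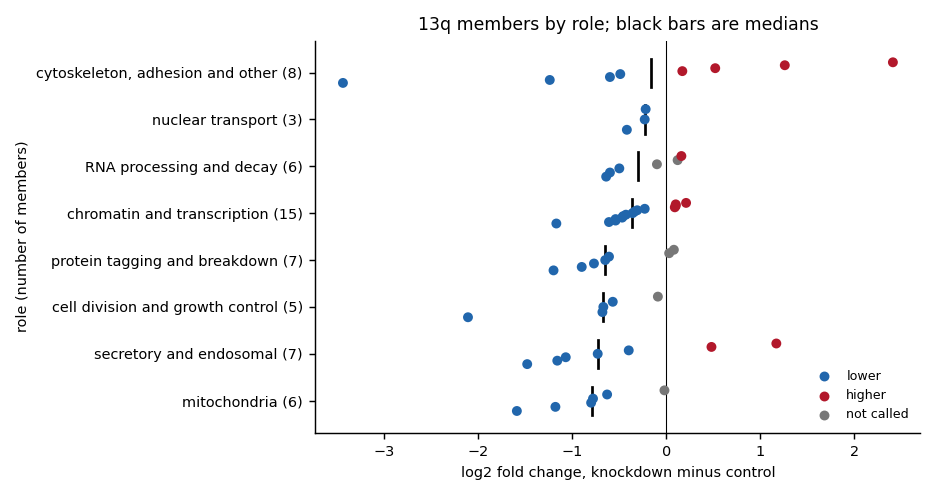
Log2 fold change of the 57 members (x axis) by role (y axis, with the number of members), coloured by call; black bars are medians. The medians run from -0.79 for mitochondrial genes to -0.16 for the last group, which holds both LHFPL6 and PARP4.

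In map order the lower values ran from the first member to the last. No analysed member lay between VPS36 and UCHL3, where other genes, such as DIAPH3 and KLF5, were tested. Gene starts, from GENCODE 29 on GRCh38, were divided into 5 segments. The 15 members from ZMYM5 to USPL1 had a median of -0.23, with 9 called lower and 3 higher. The 9 from PDS5B to LHFPL6 had a median of -0.68 (6 lower, 3 higher), and the 17 from ELF1 to VPS36 had a median of -0.46 (12 lower, 3 higher). The 9 from UCHL3 to TPP2 had a median of -0.73 (7 lower, 1 higher), and the 7 from ARGLU1 to UPF3A had a median of -0.57 (6 lower, 1 higher). Among the members, the last of the 5 segments had the narrowest interquartile range, 0.14. Its 6 lower members, ARGLU1, ING1, CUL4A, TFDP1, CDC16 and UPF3A, lay between -0.65 and -0.47. The 24 other tested protein-coding genes of this segment did not share that narrow range, and ran from -4.49 to 7.34. Of those 24 genes, 8 were called at least 2-fold lower and 3 at least 2-fold higher.

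The other 156 tested protein-coding genes of chromosome 13 had medians of -0.52, -0.25, -0.48, -0.32 and -0.75 in the same 5 segments. The segments therefore did not keep the same order in the 2 sets: the first was the highest of 5 among the members and the second lowest among the other genes. No test was made, since the same contrast chose the members.

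Map neighbours differed nearly as much as any pair of members. The median absolute difference in log2 fold change was 0.525 between the 56 pairs of map neighbours and 0.592 over all 1596 pairs of members. Of the 56 neighbouring pairs, 22 had values of opposite sign, and the longest unbroken run below 0 held 9 members, from ESD to UCHL3. LMO7 and UCHL3, whose starts are about 75.62 and 75.55 Mb along the chromosome, had log2 fold changes of 1.26 and -0.90.

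**Figure D5:**
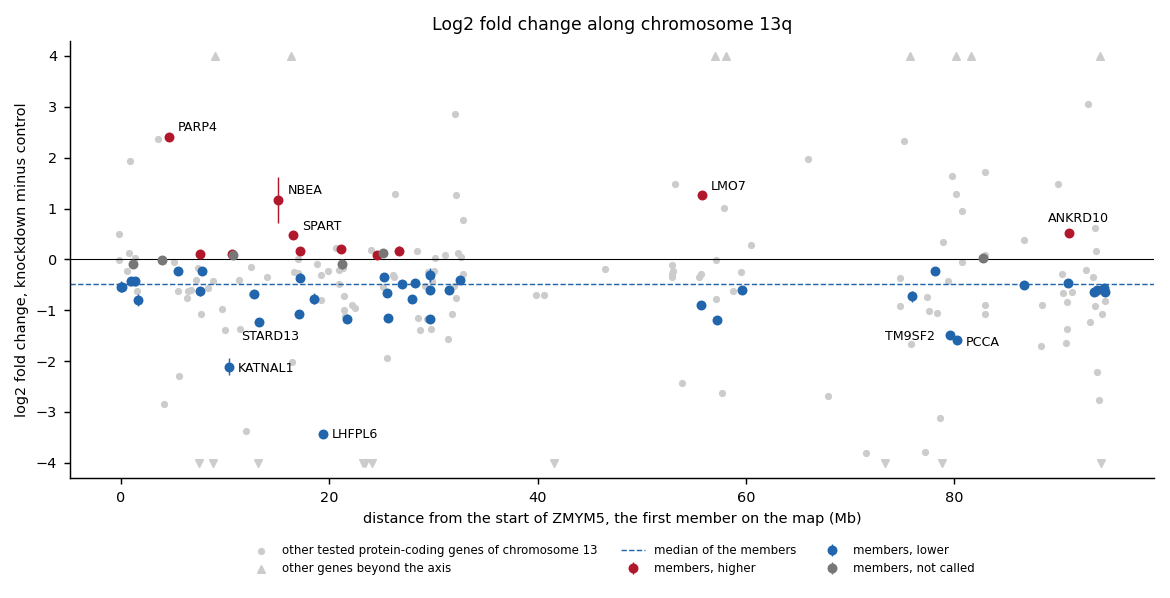
Log2 fold change, knockdown minus control (y axis), against the distance of each gene start from that of ZMYM5 (x axis, Mb); members are coloured by call with bars of 1 SE, other tested protein-coding genes of chromosome 13 are grey, and triangles mark the 18 of those beyond 4 or -4. The dashed line is the members' median, -0.49. Blue members run from -0.22 to -3.44, 10 of them at least 2-fold lower. They lie on both sides of the gap in members, with red members among them.

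Genes that start beside each other on opposite strands, within 1000 bases in GENCODE 29, formed 18 pairs among the tested protein-coding genes of chromosome 13. Both genes were called lower in 9 pairs, the genes were called in opposite directions in 2, and at least 1 was not called in 7. Of single genes, 70.2% of the members and 64.7% of the other tested protein-coding genes of chromosome 13 were called lower. Whether pairs moved together beyond these shares was not tested. In 2 pairs both genes were members: HMGB1 with USPL1 (0.10 and 0.08) and ELF1 with WBP4 (0.21 and -0.10). A single member was present in 7 pairs. Among these, SETDB2 and CAB39L were at -1.17 and -0.24, and UCHL3 and COMMD6 at -0.90 and -0.29, all called lower. CUL4A with PCID2, ING1 with CARS2, and POLR1D with LNX2 were also lower together, while NUFIP1 was not called beside GPALPP1, at -0.55.

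Some members overlap other counted genes. Overlap was taken over whole gene spans, introns included, so it need not mean shared reads. Of 22 members with no overlapping counted gene, 17 were called lower and 1, LRCH1, higher. Of 35 members with such an overlap, 23 were called lower and 10 higher. The medians of both sets were near each other, at -0.49 and -0.47. The part of overlapping reads in the higher calls was not tested.

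The rest of the arm gives the setting. The other 156 tested protein-coding genes of chromosome 13 had a median of -0.43, with 101 called lower and 30 higher, and a wider spread: their interquartile range was 1.09 against 0.71 for the members. Chromosome 13, members included, had the lowest median of 23 chromosomes, at -0.46 over 213 genes, followed by chromosome 11 at -0.32. The arm was picked because fold changes run low along it in this same contrast. These medians and the rank are therefore a description and support nothing further. In a chosen list of 30 well-known genes of 13q outside the members, the median was -0.32. Of these, 16 (53.3%) were called lower and 9 (30.0%) higher. Calls of at least 2-fold were found for 6 that were lower, where 13.4% of all genes were, and 6 that were higher, where 14.9% were. Values in the list ran from -3.11 to 11.96.

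RB1, the retinoblastoma tumour suppressor, stood at 66.8, 64.0, 61.1 and 62.2 CPM in control and at 28.2, 30.8, 28.1 and 27.4 CPM in knockdown, which left 45.1%. LAMP1, a lysosomal membrane protein, stood at 319.5, 309.8, 323.6 and 319.5 CPM in control and at 168.7, 170.5, 166.3 and 170.0 CPM in knockdown, or 53.1%. Both fell by more than the members' median, and in both the groups were far apart. The transcription factor gene KLF5 rose from 20.6 ± 1.12 CPM to 57.5 ± 1.18 CPM, and IRS2, an adaptor of insulin receptors, from 1.23 ± 0.210 CPM to 3.46 ± 0.378 CPM (SD of 4 libraries per group). FOXO1, a forkhead factor, was called higher at 0.22 (SE 0.0671) with overlapping groups. The other rises in the list with a mean of at least 50 counts included EDNRB, the endothelin B receptor. No control library held more than 1 EDNRB count, and the knockdown mean was 67.9 ± 2.34 CPM (SD, 4 libraries), at least 498-fold higher when each control is set to a floor of 3 counts. GAS6, a ligand of TAM receptors, rose from 0.308 ± 0.0842 CPM to 50.6 ± 2.32 CPM, ATP11A, a phospholipid flippase, from 18.4 ± 0.728 CPM to 154.1 ± 5.81 CPM, and the transporter ABCC4 from 3.74 ± 0.171 CPM to 18.7 ± 0.236 CPM (SD of 4 libraries per group). EDNRB and GAS6 were kept among the genes tested through their knockdown libraries, the group where they were higher, so their calls are not support.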

How the data were processed

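RNA was measured in 8 libraries of SKBR3 cells, extracted with Trizol and sequenced as paired reads of 101 bp, per the labels' protocols. The authors deposited whole-number read counts per gene. The submitters' processing notes name FastQC, Salmon 1.9, DESeq2 3.16 and the build hg38, with no role for each, so the counts may be rounded estimates; annotation release and strand are not given in the sources used here. Groups and replicate numbers came from the sample titles. Positions are from GENCODE 29 on GRCh38, matched by Ensembl identifier for 96.5% of the table. The members and lists were chosen with earlier results of these data known.

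Calls came from edgeR 4.0.16 under R 4.3.3: filterByExpr (minimum 10 counts, total 15), which kept 16430 genes, TMM factors between 0.965 and 1.04, and the robust quasi-likelihood test, with p-values adjusted by Benjamini and Hochberg across the whole set of tested genes. Each SE is that of a difference of 2 group means of log2 CPM, for which counts were raised by 0.5. The biological coefficient of variation was 4.56%. Within groups the chi-square per degree of freedom between libraries was at least 2.13, so none agreed within counting noise. P-values measure only the spread between these libraries, which may be technical. Calls were tested on simulated counts, which had few changed genes and 1 spread shared by all genes. In these data 77.1% of genes were called, so that test does not measure false calls here. Alternatives were other scalings and filters, DESeq2 1.42.0, limma 3.58.1 (voom), a replicate block, a stricter threshold and leaving out each library.

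Genes shown library by library are the lowest and highest member of each map segment, every member called higher, and LATS2, HMGB1, TPT1, ELF1, PDS5B, CUL4A, IPO5 and TFDP1. Of the list of other genes of 13q, RB1, FOXO1, KLF5, IRS2, LAMP1 and the 5 largest rises with a mean of at least 50 counts are given. Promoter windows that overlap an annotated exon are not printed, and further genes of each role were chosen as examples after their values were seen.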

Additional observations from a re-analysis of the deposited data

Results flagged for a closer look

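For every member and for the members' summed level, in each group, the gap between an extreme library and the next one was set against the range of the 4 libraries, and values above Dixon's critical ratio are given here. Among 116 such sets, 6 passed; about 5.8 would by chance. Control replicate 3 was low for MTIF3 (18.2 CPM against 20.9 to 21.3, ratio 0.847), UGGT2 (25.6 CPM against 32.7 to 33.3, ratio 0.920) and ARGLU1 (179.9 CPM against 209.6 to 211.3, ratio 0.945). The other cases were ALG5, low in control replicate 1 (28.99 CPM against 33.2 to 33.6, ratio 0.915), and VWA8, high in control replicate 2 (68.3 CPM against 65.8 to 65.9, ratio 0.957) and in knockdown replicate 4 (30.4 CPM against 28.8 to 28.95, ratio 0.930). In all 5 genes every knockdown library remained below every control library. No cause was tested.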

How the results depend on the processing

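The median log2 fold change of the 13q members was below 0 in all 16 other fits. It was -0.487 in the main fit, -0.428 with upper-quartile scaling and -0.404 with scaling by library total, which raised the median of all genes tested from 0.019 to 0.079 and 0.103. Under these 2 scalings the median log2 fold change of the other tested protein-coding genes of chromosome 13 was -0.370 and -0.345, against -0.429. The count called lower stayed between 39 and 41, and leaving out 1 library gave medians from -0.505 to -0.453 for the members and from -0.449 to -0.421 for the other genes. The 11 higher calls were less firm: they numbered 12 with upper-quartile scaling, 13 with scaling by library total, 6 at an adjusted p under 0.01 and between 7 and 11 when 1 library was left out, with 7 both without control replicate 3 and without knockdown replicate 1. Of 911 fits of single members, 875 kept the direction or stayed uncalled, 31 lost a call (in 6 members), 5 gained one (in 4 members), and no call turned. Same-numbered libraries deviated together by correlations of at most 0.0563, so the numbers were not taken as pairs; with the replicate block 40 members were lower and 10 higher. Members with few counts, such as NBEA, are limited by depth.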

Other observations

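Outside the members, 2 pairs of genes with adjoining starts on chromosome 13 were called in opposite directions, singled out after their values were seen. ATP7B, a copper-transporting ATPase, rose by 2.86 on the log2 scale beside ALG11, a mannosyltransferase of N-glycan assembly, at -0.75. POGLUT2, a glucosyltransferase, rose by 1.71 beside BIVM at -1.07.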
